A study of Mus musculus with 10 samples.

Results

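A set of 8 genes of growth factors and their binding proteins that border macrophages can secrete was followed across the genotypes of the Mrc1-CreERT2 line: Igf1, Igfbp4, Pdgfb, Pdgfc, Vegfa, Vegfb, Hbegf and Grn. They were taken by gene symbol from the deposited table of read counts, where 8 of 8 were found among 53546 genes, and all 8 passed the filter on low counts. CNS-associated macrophages live in the meninges and the perivascular spaces of the brain. They were sorted from the brains of untreated C57BL/6N mice aged 6 to 8 weeks, 1 mouse per library. The groups were Cre-Cre (Mrc1-CreERT2/Mrc1-CreERT2, 4 mice), Cre-pos (Mrc1-CreERT2/wt, 3 mice) and WT (wild type, 3 mice). CreERT2, a Cre recombinase that is activated by tamoxifen, is by the allele's name placed at Mrc1, which encodes the macrophage mannose receptor. The labels name no second allele for Cre to act on and no treatment.

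Macrophages act on their neighbours partly through secreted growth factors. IGF1 drives growth and survival through the IGF1 receptor, and IGFBP4 holds IGF1 until the protease PAPP-A cleaves it. PDGF-B recruits pericytes to vessels through PDGFR-beta. PDGF-C acts mainly through PDGFR-alpha once a protease has freed it. VEGF-A drives vessel growth through VEGFR2, and VEGF-B binds VEGFR1. HB-EGF is made as a membrane protein and shed by metalloproteinases to activate EGF receptors. Progranulin, the product of Grn, is secreted and is also carried to lysosomes, where it is processed into granulins, and loss of the gene causes neurodegeneration in humans.

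The libraries held 27358042 to 36575446 counts in Cre-Cre, 22986972 to 32326603 in Cre-pos and 28668839 to 32931690 in WT mice. Levels are given in CPM, counts per 1000000 of the library total after scaling by trimmed-mean-of-M-values factors. Mrc1, the targeted gene, was at 489 ± 48.6 CPM (SD, n = 4) in Cre-Cre, 2153 ± 153 CPM (SD, n = 3) in Cre-pos and 3481 ± 365 CPM (SD, n = 3) in WT libraries, and the values of the genotypes did not overlap. In such bulk samples, fewer cells of a type and less RNA per cell cannot be told apart. All 15 markers of CNS-associated macrophages were detected in all 10 libraries. Their summed level, which includes Mrc1, was 36100 to 36400 CPM in Cre-Cre, 31300 to 35000 CPM in Cre-pos and 30400 to 34000 CPM in WT libraries. Between Cre-Cre and WT 13 of the 15 were fitted above 0, beside 51.1% of all tested genes. Of the 15, 1 was called higher and 2 lower, Mrc1 among the latter, beside 0.0642% of all tested genes called in either direction. All 12 microglia markers were detected as well, with sums of 9910 to 12300, 12800 to 15800 and 10900 to 19600 CPM in Cre-Cre, Cre-pos and WT. Markers of endothelial cells, pericytes and smooth muscle, meningeal fibroblasts and astrocytes, which also make some of these factors, were lower than the microglia sums. Endothelial sums over 12 genes ran from 0.0363 to 7.12 CPM in Cre-Cre, 0.123 to 1.92 CPM in Cre-pos and 7.65 to 15.6 CPM in WT libraries, with Cldn5, Tek, Tie1, Esam, Ly6c1 and Emcn at 0 in all. Pericyte and smooth muscle sums over 10 genes reached at most 14.1, 12.2 and 12.2 CPM in the same order, with Rgs5, Kcnj8, Myh11 and Notch3 at 0 in all. Meningeal fibroblast sums over 10 genes reached at most 16.6, 16.1 and 31.4 CPM, with Dpep1 at 0 in all, and astrocyte sums over 10 genes 87.1, 66.5 and 93.6 CPM. Oligodendrocyte lineage sums reached at most 278, 254 and 336 CPM, and choroid plexus epithelium sums 67, 111 and 364 CPM. The part of such cells in the values below was not tested except where a value is given.

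The 8 genes covered a wide range of levels. To compare genes with each other, CPM values were divided by the length of all annotated exons of the gene in kilobases. Grn led with a mean level of 1290 CPM per kb over the 10 libraries (lowest 1190, highest 1400). Igfbp4 followed at 257 CPM per kb (173 to 373). Grn was above Igfbp4 in 10 of 10 libraries without overlap, at 5.04 times its mean level, and Igfbp4 stood 7.47 times above the next gene, also without overlap. Vegfb at 34.4 CPM per kb (15.6 to 44.3) and Igf1 at 28.9 CPM per kb (23.3 to 34.9) overlapped, with Vegfb the higher in 8 of 10 libraries. Before the division Igf1 averaged 286 CPM and Vegfb 55.2 CPM. Their order thus depends on the annotated exon lengths, 9904 bases for Igf1 and 1605 for Vegfb. Pdgfb was at 8.55 CPM per kb (2.17 to 14.3), below Igf1 in every library. The lowest levels were those of Pdgfc at 1.37 (0 to 4.23), Hbegf at 0.554 (0 to 2.14) and Vegfa at 0.241 CPM per kb (0 to 1.56). The ranges of these 3 genes overlapped, and Pdgfc exceeded Hbegf in 5 of 10 libraries. The binding protein of IGF1 was thus counted at a higher level per length than IGF1 itself in each library, and Vegfb at a higher level than Vegfa in each.

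**Figure D1:**
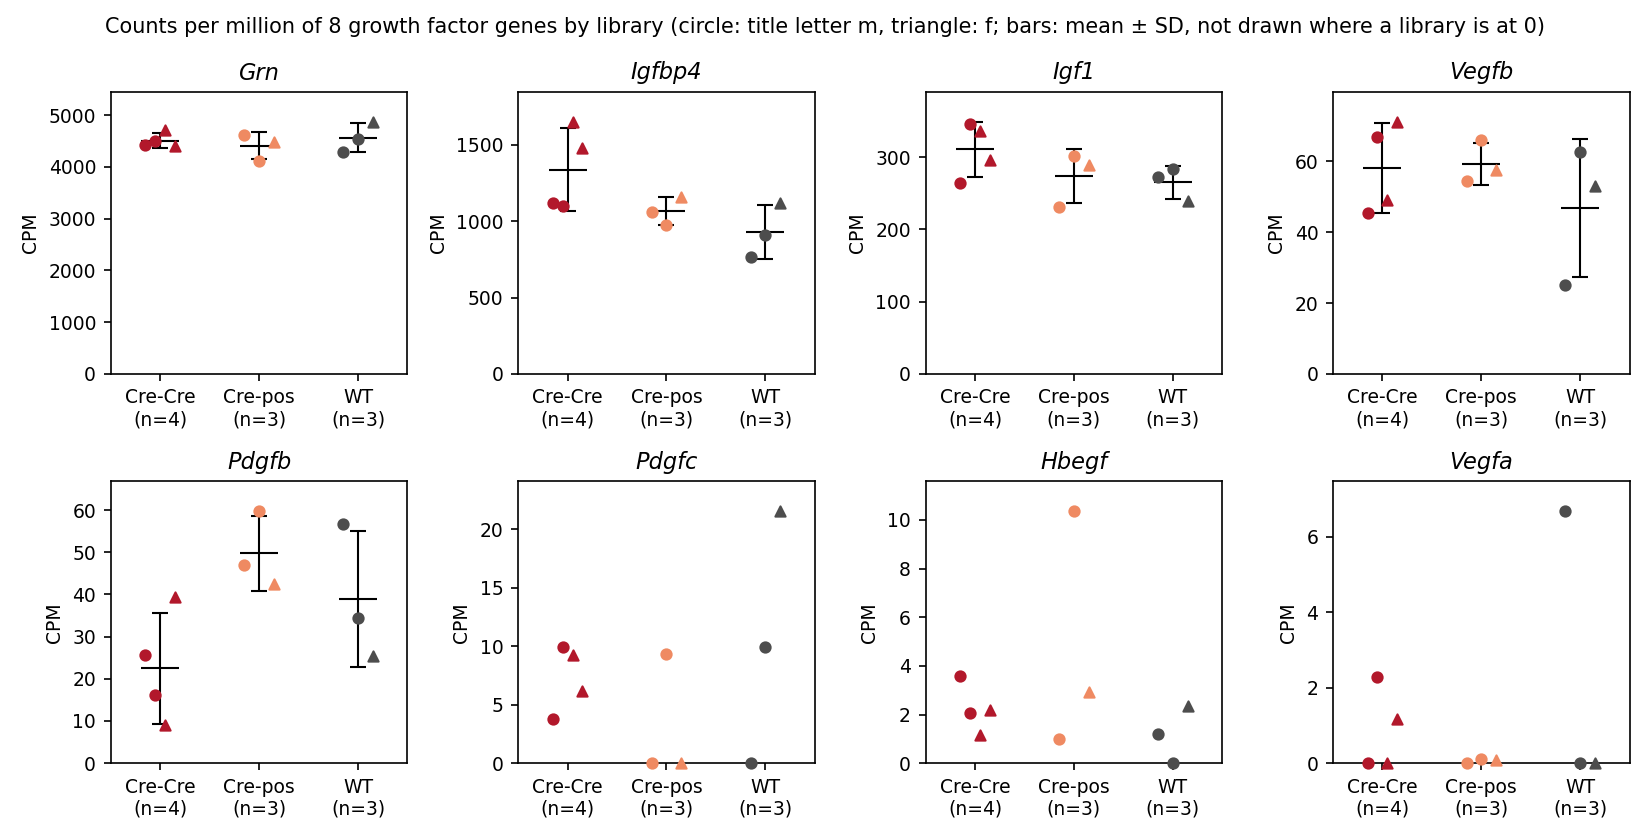
Level in CPM (linear axis from 0) of each gene in every library, by genotype from left to right Cre-Cre (n = 4), Cre-pos (n = 3) and WT (n = 3). Bars are mean ± SD and are left out for genes with a library at 0. Grn lies between 4120 and 4861 CPM in all 10 libraries, while Pdgfc, Hbegf and Vegfa include libraries at 0.

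Grn, the progranulin gene, was the steadiest member across genotypes. It had 4413, 4494, 4716 and 4405 CPM in the Cre-Cre libraries, 4616, 4120 and 4485 CPM in the Cre-pos libraries and 4288, 4546 and 4861 CPM in the WT libraries. The values of the genotypes lay among each other. Its coefficient of variation over the 10 libraries was 4.68%, against a median of 12.6% for the 99 tested genes with a mean of at least 1000 CPM. The log2 fold change was -0.018 (SE 0.068) between Cre-Cre and WT, with a 95% interval of 0.890 to 1.10 on the linear scale. For Cre-pos against WT it was -0.051 (SE 0.072, interval 0.864 to 1.08 linear). Grn did not pass the test in either comparison (adjusted p = 0.999 and adjusted p = 1, edgeR's quasi-likelihood test over 14023 genes). In the annotation used for lengths, the exons of Grn share 68 bases with Fam171a2 on the opposite strand, and the library kit does not mark the strand.

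The genes around progranulin differed widely in level. Ctsb, a lysosomal protease, was at 13570 ± 667 CPM (SD, n = 4) in Cre-Cre, 11370 ± 831 CPM (SD, n = 3) in Cre-pos and 11010 ± 1169 CPM (SD, n = 3) in WT libraries. Every Cre-Cre library was above every other library. Taken singly, this held for 4.4% of tested genes against WT and 3.75% against Cre-pos, and the share with both was not counted. The log2 fold change against WT was 0.30 (SE 0.08), at an adjusted p of 0.414 by edgeR's test. Psap, which encodes prosaposin, the partner that carries progranulin to lysosomes, was at 2079 ± 169 CPM (SD, n = 4) in Cre-Cre, 1948 ± 216 CPM (SD, n = 3) in Cre-pos and 1967 ± 516 CPM (SD, n = 3) in WT libraries. Ctsl, a protease that cuts progranulin into granulins, and Lrp1, an endocytic receptor, had log2 fold changes of 0.12 and -0.07 between Cre-Cre and WT. Sort1, which encodes sortilin, the receptor that takes up progranulin, had 52.9, 45.8, 50.9 and 39.0 CPM in Cre-Cre libraries, 57.6, 26.6 and 30.8 CPM in Cre-pos libraries and 98.2, 54.4 and 82.0 CPM in WT libraries. All Cre-Cre values of Sort1 were below all WT values, as for 3.57% of tested genes, while Cre-pos and WT overlapped. Its log2 fold changes against WT were -0.73 (SE 0.30) in Cre-Cre and -1.03 (SE 0.33) in Cre-pos, at unadjusted p of 0.0359 and 0.0106 (adjusted p = 0.653 and adjusted p = 0.791 by edgeR's test). Tmem106b, a lysosomal membrane protein gene, averaged 75.4 CPM over the 10 libraries, Slpi, an inhibitor of progranulin cleavage, 0.410 CPM, and Elane was at 0 in all. Of the 9 genes of this list, 8 were tested, and 0 were called in any of the 3 comparisons.

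Igfbp4 had the smallest unadjusted p of the members between Cre-Cre and WT, and it passed no test over all genes. It had 1119, 1099, 1649 and 1478 CPM in the Cre-Cre libraries, 1062, 975 and 1158 CPM in the Cre-pos libraries and 763, 910 and 1117 CPM in the WT libraries. The highest WT library lay among the Cre-Cre values, so the genotypes overlapped. The means were 1336 ± 272 CPM (SD, n = 4) in Cre-Cre, 1065 ± 91.7 CPM (SD, n = 3) in Cre-pos and 930 ± 178 CPM (SD, n = 3) in WT libraries. Between Cre-Cre and WT the log2 fold change was 0.52 (SE 0.17, 95% interval 0.14 to 0.91). Its unadjusted p of 0.0122 ranked it 302nd of 14023 genes, with an adjusted p = 0.566 by edgeR's test. It was 0.20 (SE 0.18) for Cre-pos against WT and 0.33 (SE 0.17) for Cre-Cre against Cre-pos, and neither passed (adjusted p = 1 for both). The microglia sums averaged 11500 CPM in Cre-Cre, 14000 CPM in Cre-pos and 14400 CPM in WT libraries. The part of microglia, endothelial cells and fibroblasts in the Igfbp4 values was not tested.

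The sample titles carry a letter, m or f, and each genotype held both. Within each letter the Igfbp4 values of the genotypes did not overlap in the order Cre-Cre, Cre-pos, WT, a pattern that 39 of 14023 tested genes (0.278%) showed within both letters. Among the f libraries they were 1649 and 1478 CPM in Cre-Cre, 1158 CPM in Cre-pos and 1117 CPM in WT. Among the m libraries they were 1119 and 1099 CPM in Cre-Cre, 1062 and 975 CPM in Cre-pos and 763 and 910 CPM in WT. With the letter in the fit, the log2 fold change between Cre-Cre and WT was 0.45 (SE 0.10, 95% interval 0.23 to 0.67), at an unadjusted p of 0.00123 (adjusted p = 0.258 by edgeR's test). Igfbp4 was also higher in f than in m libraries within every genotype without overlap, as were 2.92% of tested genes. The letter groups hold 1 or 2 mice per genotype, and Igfbp4 was singled out here after its values had been seen.

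**Figure D2:**
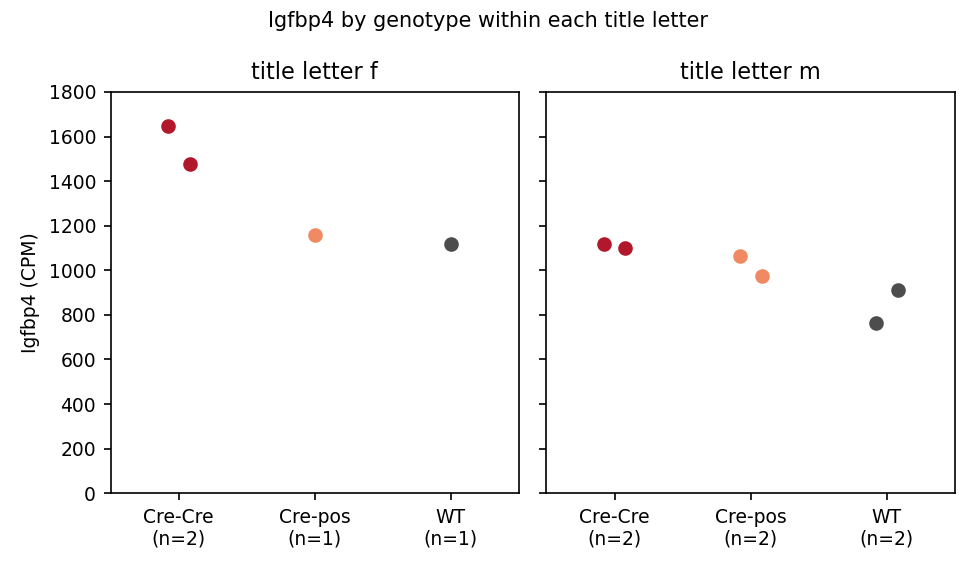
Igfbp4 level in CPM (linear axis from 0) for libraries with title letter f (left) and m (right), by genotype from left to right Cre-Cre, Cre-pos and WT, 1 point per mouse. Within each letter the Cre-Cre points are the highest and the WT points the lowest, while the f library of WT at 1117 CPM lies between the m libraries of Cre-Cre at 1099 and 1119 CPM.

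Igf1 itself varied less. It had 264, 346, 337 and 296 CPM in the Cre-Cre libraries, 231, 301 and 289 CPM in the Cre-pos libraries and 273, 284 and 240 CPM in the WT libraries. All genotypes overlapped, with the 2 highest values in Cre-Cre. Fitted log2 fold changes were 0.23 (SE 0.14, 95% interval -0.08 to 0.53) between Cre-Cre and WT and 0.045 (SE 0.15, interval -0.28 to 0.37) between Cre-pos and WT (adjusted p = 0.817 and adjusted p = 1 by edgeR's test). The interval for Cre-Cre against WT covers 0.949 to 1.45 on the linear scale.

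The rest of the IGF system was mostly low in these cells. Of 18 genes on the list, 9 were tested and 0 were called in any comparison. Pappa and Pappa2, the proteases that cleave IGF binding proteins, and Igfbp3 were at 0 in all 10 libraries. Insr, the insulin receptor, was at 66.7 ± 26.9 CPM (SD, n = 4) in Cre-Cre, 59.6 ± 19.9 CPM (SD, n = 3) in Cre-pos and 68.3 ± 15.4 CPM (SD, n = 3) in WT libraries, and Irs2, an adaptor of both receptors, had a log2 fold change of -0.24 between Cre-Cre and WT. Igf1r, the receptor of IGF1, had 16.6, 13, 22.1 and 17.6 CPM in Cre-Cre libraries, 40.5, 15.1 and 11.8 CPM in Cre-pos libraries and 7.42, 10.1 and 9.997 CPM in WT libraries. All carriers of the allele were above all WT mice. Taken singly, 4.4% of tested genes showed this between Cre-Cre and WT, and 5.43% between Cre-pos and WT. The share with both was not counted. Igf1r did not pass edgeR's test in Cre-Cre (log2 fold change 0.92, SE 0.48, adjusted p = 0.719) or Cre-pos (1.29, SE 0.51, adjusted p = 0.791). Both comparisons use the same WT libraries. Igfbp2, the fourth most abundant gene of the list apart from Igf1 and Igfbp4, was at 2.7 ± 1.32 CPM (SD, n = 4) in Cre-Cre, 2.22 ± 2.65 CPM (SD, n = 3) in Cre-pos and 7.17 ± 4.47 CPM (SD, n = 3) in WT libraries.

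Pdgfb had its lowest values in homozygous mice. It had 25.5, 16.1, 9.02 and 39.5 CPM in the Cre-Cre libraries, 47.1, 59.7 and 42.5 CPM in the Cre-pos libraries and 56.7, 34.4 and 25.5 CPM in the WT libraries. All Cre-Cre values were below all Cre-pos values, while Cre-Cre and WT overlapped. Between Cre-Cre and Cre-pos the log2 fold change was -1.14 (SE 0.46, 95% interval -2.17 to -0.12), at an unadjusted p of 0.0324 (adjusted p = 1 by edgeR's test). Of the tested genes, 3.72% had all Cre-Cre libraries below all Cre-pos libraries. Against WT the log2 fold change was -0.79 (SE 0.46, interval -1.81 to 0.24) in Cre-Cre and 0.36 (SE 0.50, interval -0.75 to 1.46) in Cre-pos (adjusted p = 0.797 and adjusted p = 1). The means were 22.5 ± 13.2 CPM (SD, n = 4) in Cre-Cre, 49.7 ± 8.90 CPM (SD, n = 3) in Cre-pos and 38.9 ± 16.1 CPM (SD, n = 3) in WT libraries, with Cre-pos the highest.

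Pdgfc was detected unevenly. It had 103, 366, 315 and 204 counts in the Cre-Cre libraries, or 3.74, 9.97, 9.22 and 6.15 CPM. The Cre-pos libraries had 1, 304 and 0 counts, or 0.0314, 9.36 and 0 CPM, and the WT libraries had 0, 324 and 691 counts, or 0, 9.91 and 21.5 CPM. All 4 Cre-Cre libraries held the transcript, against 1 of 3 Cre-pos and 2 of 3 WT libraries with more than 1 count. A count of 0 allows up to 0.130 CPM in Cre-pos replicate 4 and up to 0.102 CPM in WT replicate 1, taking 3 counts as the limit, which covers counting error only. Libraries at 0 were common at this level: 62.8% of the 3831 tested genes with a mean from 1 to 10 CPM had at least 1. The log2 fold change of -0.53 (SE 1.98) between Cre-Cre and WT has an interval of -4.92 to 3.87 and became 0.56 without WT replicate 3. Gm16000, an antisense gene, shares 147 exonic bases with Pdgfc in the annotation.

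The other PDGF genes included activating proteases, some of them hardly counted. Plat, which encodes tissue plasminogen activator, an activator of PDGF-C, was at 0 in 8 libraries and at most 0.436 CPM, and Pcsk5, another convertase gene, was at 0 in 9. Furin, a proprotein convertase that cuts PDGF precursors, was at 105 ± 21.7 CPM (SD, n = 4) in Cre-Cre, 67.8 ± 21.1 CPM (SD, n = 3) in Cre-pos and 86.3 ± 36.96 CPM (SD, n = 3) in WT libraries. Plau, the gene of urokinase, was at 35.6 ± 16.8, 57.2 ± 29.2 and 17.4 ± 9.13 CPM (SD, n = 4, 3 and 3) in Cre-Cre, Cre-pos and WT. All Cre-pos values of Plau were above all WT values, as for 5.43% of tested genes, at a log2 fold change of 1.71 (SE 0.59) and adjusted p = 0.791 by edgeR's test. Pdgfa, another ligand, had log2 fold changes of 0.013 in Cre-Cre and -0.98 in Cre-pos against WT. The receptors were almost absent: Pdgfrb was at 0 in 8 libraries, with 7.82 CPM in Cre-pos replicate 2 and 11.2 CPM in WT replicate 3. Of 10 genes on the list, 5 were tested and 0 called in any comparison.

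Vegfb was counted in 10 of 10 libraries and Vegfa in 5. Vegfb had 45.4, 66.9, 49.2 and 71.1 CPM in the Cre-Cre libraries, 54.6, 66.0 and 57.5 CPM in the Cre-pos libraries and 25.1, 62.5 and 53.1 CPM in the WT libraries. The genotypes overlapped, and WT replicate 1 lay apart at the low end. Against WT the log2 fold change was 0.31 (SE 0.31, 95% interval -0.37 to 0.995) in Cre-Cre and 0.34 (SE 0.33, interval -0.39 to 1.07) in Cre-pos (adjusted p = 0.999 and adjusted p = 1 by edgeR's test). Without WT replicate 1 these were 0.015 in Cre-Cre and 0.034 in Cre-pos.

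Vegfa had 0, 84, 0 and 39 counts in the Cre-Cre libraries, 0, 4 and 2 counts in the Cre-pos libraries and 196, 0 and 0 counts in the WT libraries. In CPM the libraries with counts were at 2.29 and 1.18 in Cre-Cre, 0.123 and 0.0864 in Cre-pos and 6.67 in WT. Only 3 libraries held more than 4 counts, and the 5 at 0 allow at most 0.0878 to 0.109 CPM by counting error only. No direction could be read, since the log2 fold change between Cre-Cre and WT of -1.36 (SE 2.62) turned to 7.79 without WT replicate 1, and that between Cre-pos and WT of -4.92 (SE 3.33) turned to 4.21. WT replicate 1 also held the highest summed level of 8 markers of choroid plexus epithelium, a tissue that makes VEGF-A, at 364 CPM. Most of this sum was the single gene Ttr, at 336 CPM, and Aqp1 and Otx2 were at 0 in all libraries. The next highest sum was 111 CPM in Cre-pos replicate 4, where Vegfa was at 0.0864 CPM. The part of choroid plexus cells in the Vegfa count was not tested. Hypoxia-induced genes, the class to which Vegfa belongs, had 0 of 15 tested members, Vegfa included, called in any comparison. Their medians were -0.10 in Cre-Cre and -0.06 in Cre-pos against WT, beside 0.016 and 0.009 over all genes. The 4 most abundant, P4ha1, Aldoa, Ldha and Hk2, enzymes of collagen modification and glycolysis, had log2 fold changes of -0.0014, -0.10, -0.0084 and 0.031 between Cre-Cre and WT.

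Among VEGF receptors, the neuropilins were expressed and the kinases hardly. Nrp1, a co-receptor of VEGF-A and of semaphorins, was at 1337 ± 194 CPM (SD, n = 4) in Cre-Cre, 1073 ± 18.8 CPM (SD, n = 3) in Cre-pos and 1187 ± 52.8 CPM (SD, n = 3) in WT libraries. Its log2 fold change was 0.32 (SE 0.11) between Cre-Cre and Cre-pos, without overlap of the libraries (3.75% of tested genes had all Cre-Cre libraries higher), and did not pass (adjusted p = 1). All Cre-pos values of Nrp1 were also below all WT values, as for 4.16% of tested genes, at a log2 fold change of -0.15 (SE 0.11). Nrp2 was at 107 ± 17.2 CPM (SD, n = 4) in Cre-Cre, 79.1 ± 7.47 CPM (SD, n = 3) in Cre-pos and 65.7 ± 35.1 CPM (SD, n = 3) in WT libraries. Kdr, which encodes VEGFR2, was at 0 in 6 libraries and highest in WT replicate 1 with 15.6 CPM, and Flt1, which encodes VEGFR1, was counted only in Cre-pos replicate 1, at 1.85 CPM. Of 10 genes on the list 5 were tested and 0 called in any comparison.

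Hbegf was low throughout. It had 3.60, 2.04, 1.14 and 2.17 CPM in the Cre-Cre libraries, 0.974, 10.4 and 2.94 CPM in the Cre-pos libraries and 1.19, 0 and 2.37 CPM in the WT libraries. The genotypes overlapped and Cre-pos replicate 2 held the highest value. Against WT the log2 fold change was 0.91 (SE 1.59, 95% interval -2.63 to 4.46) in Cre-Cre and 1.999 (SE 1.73, interval -1.84 to 5.84) in Cre-pos (adjusted p = 0.999 and adjusted p = 1 by edgeR's test). Without WT replicate 3 the value for Cre-Cre against WT was 1.91, and without WT replicate 2 it was 0.34. For Cre-pos against WT it was 0.72 without Cre-pos replicate 2, 1.41 without WT replicate 2 and 2.99 without WT replicate 3. That between Cre-Cre and Cre-pos was -1.09 (SE 1.55) and turned to 0.20 without Cre-pos replicate 2. Hbegf is also induced in stressed cells, and of 21 immediate early and dissociation stress genes, Hbegf included, 0 were called in any comparison. The list's median log2 fold change was -0.10 for Cre-Cre against WT, 0.18 for Cre-pos against WT and -0.52 for Cre-Cre against Cre-pos, beside 0.016, 0.009 and 0.0081 over all genes. Its 4 most abundant members, the transcription factor genes Klf6 and Jun, the antiproliferative gene Btg2 and Zfp36, which encodes an mRNA-destabilising protein, had log2 fold changes of -0.09, -0.10, -0.48 and -0.21 between Cre-Cre and WT, and none passed.

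The sheddases that can release HB-EGF were well expressed. Adam9, Adam10 and Adam17, 3 membrane metalloproteinases, were at 285 ± 13.3, 245 ± 26.4 and 275 ± 52.5 CPM (SD, n = 4) in Cre-Cre, at 225 ± 72.6, 284 ± 19.0 and 219 ± 25.9 CPM (SD, n = 3) in Cre-pos and at 207 ± 73.4, 231 ± 34.9 and 249 ± 65.5 CPM (SD, n = 3) in WT libraries. None of them passed in any comparison. Cd9, a tetraspanin that binds the membrane form of HB-EGF, had 16.1, 36.4, 24.8 and 31.2 CPM in Cre-Cre libraries, 82.7, 102 and 130 CPM in Cre-pos libraries and 108, 94.7 and 213 CPM in WT libraries. Every Cre-Cre library was below every other library. Taken singly, 3.57% of tested genes showed this against WT and 3.72% against Cre-pos, and the share with both was not counted. The log2 fold change between Cre-Cre and WT was -2.35 (SE 0.35), just short of the threshold by edgeR's test (adjusted p = 0.0567). It passed in 4 of 19 alternatives, with no count filter, a stricter filter, DESeq2 or the title letter in the fit, and the adjusted p ran from 2.25e-08 to 0.233 over the 19. Lists of markers of other myeloid cells differed in direction for Cre-Cre against WT. Of all tested genes, 7.52% had an unadjusted p under 0.05 in either direction in this comparison, and 0.0642% were called. Of 12 microglia markers, 6 had lower values in Cre-Cre than in WT at an unadjusted p under 0.05 and 0 were called. Their median log2 fold change was -1.13, with 2 fitted above 0. Of 12 monocyte and neutrophil markers 5 were tested and 1 was called lower, with a median of -1.5. Of 8 dendritic cell markers 4 were tested and 0 called, with a median of 0.31 and 2 fitted above 0. WT replicate 3 held both the highest Cd9 value and the highest microglia sum, 19600 CPM, and without it the log2 fold change of Cd9 was -1.9. The part of these cells in the Cd9 values was not tested. The EGF and ErbB list held 16 genes, of which 9 were tested and 0 called.

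Over the 8 genes, 0 were called in each of the 3 comparisons at an adjusted p under 0.05. Over all 14023 genes tested, 0.0642% were called between Cre-Cre and WT, 0% between Cre-pos and WT and 0.0214% between Cre-Cre and Cre-pos, so the members' count of 0 of 8 is near the background. At an unadjusted p under 0.05 there was 1 member between Cre-Cre and WT (Igfbp4), 0 between Cre-pos and WT and 1 between Cre-Cre and Cre-pos (Pdgfb), against 7.52%, 5.82% and 4.86% of all genes. By DESeq2 and by limma-voom 0 members were called as well. The median log2 fold change of the members was 0.11 for Cre-Cre against WT, 0.12 for Cre-pos against WT and 0.11 for Cre-Cre against Cre-pos. The precision differed widely between members: for Cre-Cre against WT the SE was 0.068 for Grn, 0.14 for Igf1 and 0.17 for Igfbp4, but 1.98 for Pdgfc and 2.62 for Vegfa, beside a median of 0.61 over all genes.

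**Figure D3:**
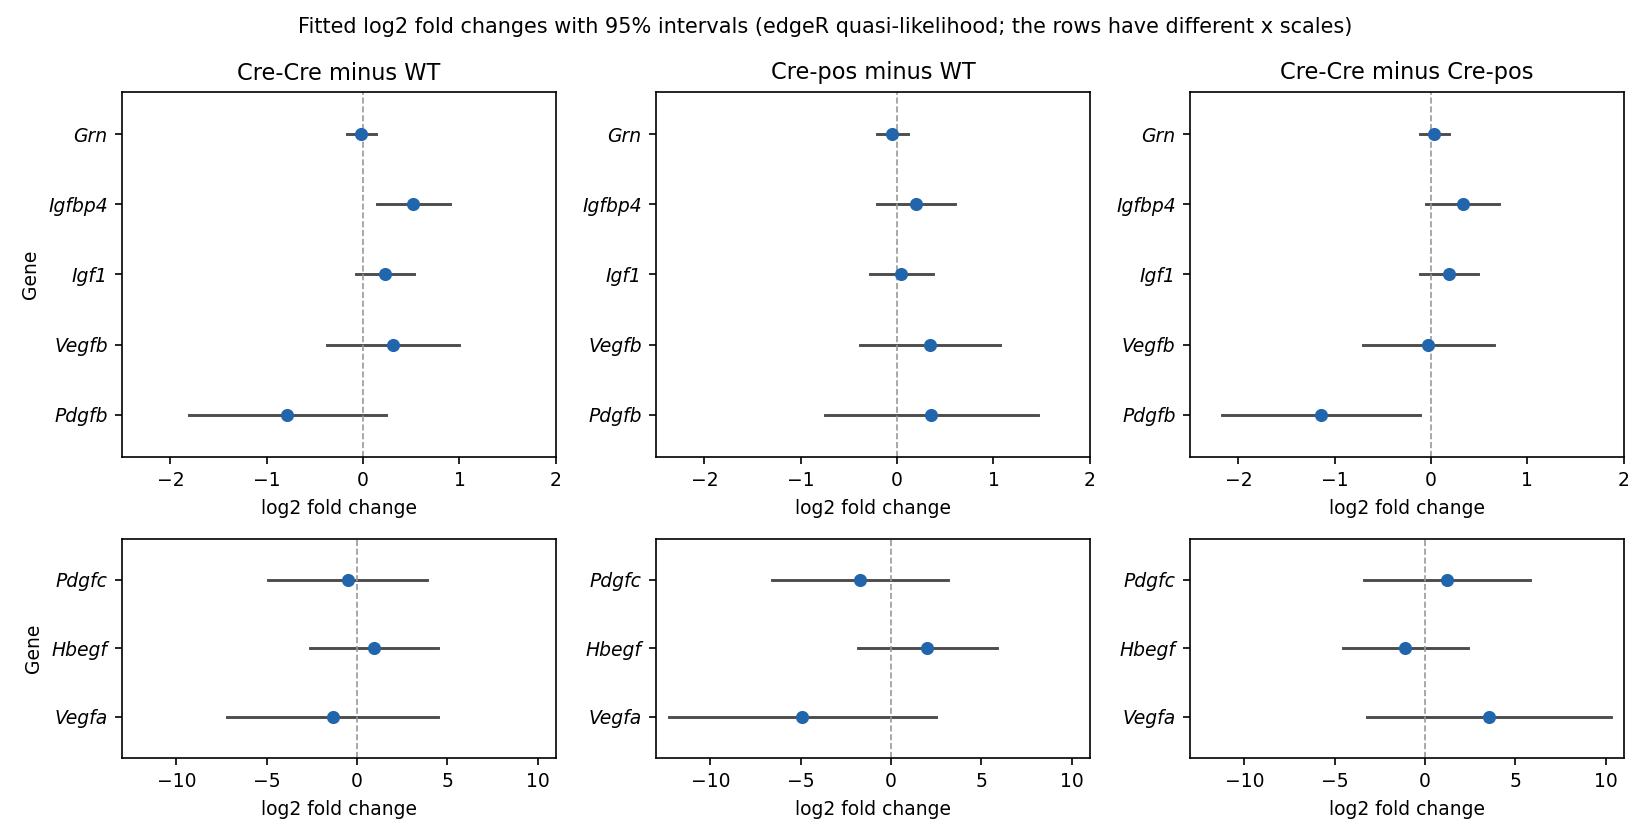
Log2 fold changes (points) with 95% intervals (lines) from edgeR's quasi-likelihood fit for the 3 comparisons, with the 5 abundant genes above and the 3 genes with libraries at 0 below on a wider axis. The interval excludes 0 for Igfbp4 in Cre-Cre against WT (0.14 to 0.91) and for Pdgfb in Cre-Cre against Cre-pos (-2.17 to -0.12), and neither gene passed over all genes.

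**Figure D4:**
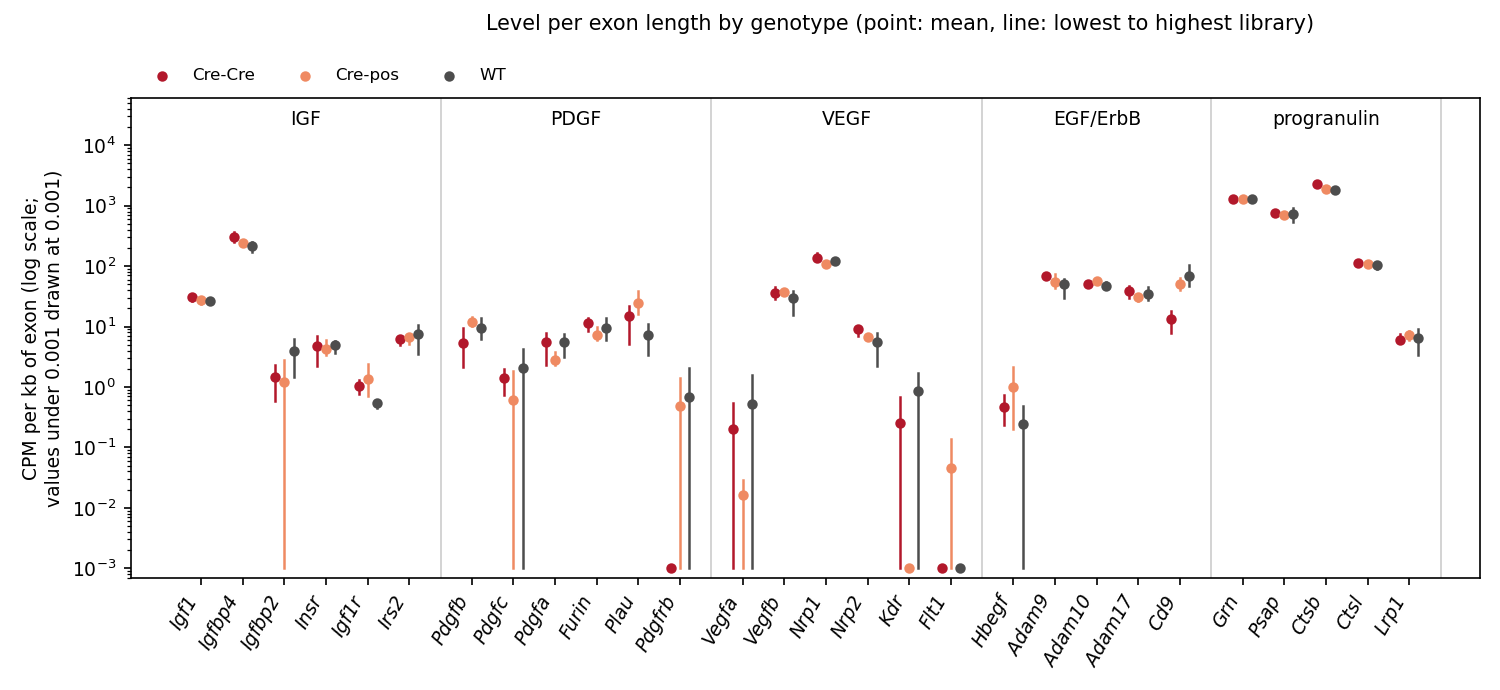
Level in CPM per kb of exon (log axis, values under 0.001 drawn at 0.001) of the 8 genes and of the most abundant genes of their pathways, by genotype (points are means, lines run from the lowest to the highest library). Of the genes drawn, which leave out the list of other secreted growth factors, Grn, Ctsb and Psap form the top, with 1290, 2010 and 731 CPM per kb as means over the 10 libraries, while the receptor kinase genes Pdgfrb, Kdr and Flt1 include libraries at 0 in each genotype that has counts.

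Other secreted growth factors were compared on a list of 22 genes, of which 14 were tested and 0 called in any comparison. Gas6, a ligand of the TAM receptors, was the most abundant at 2126 ± 158 CPM (SD, n = 4) in Cre-Cre, 1808 ± 73.9 CPM (SD, n = 3) in Cre-pos and 1709 ± 224 CPM (SD, n = 3) in WT libraries. Its Cre-Cre libraries were all above the others, at a log2 fold change of 0.32 (SE 0.10) against WT and adjusted p = 0.534 by edgeR's test. Taken singly, 4.4% of tested genes had this order against WT and 3.75% against Cre-pos, and the share with both was not counted. Pros1, a second TAM ligand, Tgfb1, an immunoregulatory cytokine, and Metrnl, a secreted meteorin relative, had log2 fold changes of 0.06, 0.27 and 0.05 between Cre-Cre and WT. Transcripts of Bdnf, Tgfb3 and Lif were at 0 in all 10 libraries.

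The genes whose log2 CPM over the 10 libraries was most like that of a member were taken from 6438 genes with a mean of at least 20 CPM. They are described without a test, since the best of so many are picked. For Igf1 they were Hat1, Zeb2os and Tcf4 (Pearson r 0.899, 0.864 and 0.844, Spearman rho 0.891, 0.855 and 0.709). For Igfbp4 they were Adam15, Fcrls, which is also on the list of microglia markers, and Lpar6 (r 0.923, 0.922 and 0.914, rho 0.867, 0.915 and 0.867). For Grn they were Trmt12, Smim19 and Tk2 (r 0.902, 0.879 and 0.877, rho 0.867, 0.855 and 0.879) and for Vegfb Tmem50a, Gzf1 and Irak4 (r 0.938, 0.932 and 0.927, rho 0.842, 0.758 and 0.758). For Pdgfb they were Ddx3x, Usp1 and Tep1 (r 0.946, 0.926 and 0.909, rho 0.782, 0.939 and 0.879). For Pdgfc they were Tomm20, Dnajb11 and Mrpl43 (r 0.902, 0.899 and 0.896, rho 0.413, 0.705 and 0.851). For Vegfa they were Gbp3, Plaa and Slc10a7 (r 0.877, 0.855 and 0.831, rho 0.813, 0.657 and 0.65), and for Hbegf Ralgapa1, Pygo2 and Wdr91 (r 0.926, 0.925 and 0.92, rho 0.697, 0.6 and 0.794). Among the members themselves r ran from -0.638, for Igfbp4 and Pdgfb, to 0.518, for Pdgfc and Vegfb. The microglia list that holds Fcrls had a median log2 fold change of -1.13 between Cre-Cre and WT, against 0.52 for Igfbp4. Only 2 of the 12 microglia markers were fitted above 0.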

How the data were processed

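Total RNA from sorted CNS-associated macrophages was used at 500 pg per library with the SMARTer Ultra Low Input and Nextera XT kits, per the labels' protocols, in 1 labelled batch. The submitters' processing notes list bcl2fastq 2.20, STAR 2.7.8a and featureCounts 2.0.2, and the authors deposited whole-number read counts per gene symbol. Neither the labels nor the table name a build, an annotation or a strand setting. Coordinates were therefore left out, and reads of overlapping genes cannot be told apart.

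The filter (filterByExpr, minimum count 10, minimum total 15) kept 14023 of 53546 genes. Counts were scaled by trimmed-mean-of-M-values factors and tested with edgeR 4.0.16 (R 4.3.3, robust, all 10 libraries, genotype only, Benjamini-Hochberg over all genes, called under 0.05). SE is the fold change over the square root of F. Log2 CPM used a prior count of 2. Exon lengths and overlaps came from GENCODE vM21, which may not be the authors' annotation.

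No pair of replicates agreed within sampling noise (chi-square per gene at least 87.1). Each library is from an individual mouse. The alternatives used DESeq2 1.42.0 and limma 3.58.1 among others. Of each pathway list the 4 most abundant genes are named, and of genes alike in pattern the 3 closest. Sort1, Tmem106b, Slpi, Elane, Plat, Pcsk5, Bdnf, Tgfb3, Lif, Pappa, Pappa2, Igfbp3 and the additional genes of the closing section were named after their values were seen, as were the comparisons by title letter. Members and lists were chosen with earlier results of these data known.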

Additional observations from a re-analysis of the deposited data

How the results depend on the processing

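In each of 19 alternatives 0 of the 8 growth factor genes were called in any comparison, and the lowest adjusted p of a member was 0.0993, for Igfbp4 between Cre-Cre and WT by DESeq2. Its log2 fold change there ran from 0.40 to 0.68 over the 19. The number of all genes called between Cre-Cre and WT was 9, but 286 with DESeq2, 17 with the title letter in the fit, 2 with only these genotypes in the fit and 2 to 12 with a library left out. Between Cre-pos and WT it was 0, but 228 with DESeq2, and between Cre-Cre and Cre-pos 3, but 131 with DESeq2, 1 without robust estimation, with the title letter or with only these genotypes, and 1 to 2 with a library left out.

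The labels do not say whether the replicate numbers pair the mice. Deviations of libraries with the same number had correlations of -0.0065 to 0.122 over 8 pairs. Those of libraries with different numbers ran from -0.23 to 0.186. Of the libraries of Cre-Cre and WT, 4 of 6 correlated best with their own number. With 3 or 4 mice per genotype these values cannot decide whether the numbers pair mice. With the replicate block 1 gene was called between Cre-Cre and WT and 1 between Cre-Cre and Cre-pos, the log2 fold change of Pdgfc between Cre-Cre and WT was 3.61 and that of Pdgfb between Cre-pos and WT -0.035, both turned in sign. Limma-voom gave 2.10 for Pdgfc and 0.55 for Vegfa between Cre-Cre and WT, also turned. The cause was not tested.

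With a library left out, signs turned within these ranges. Between Cre-Cre and WT they were -1.10 to 0.56 for Pdgfc, -1.95 to 7.79 for Vegfa and -0.055 to 0.031 for Grn. Between Cre-pos and WT they were -0.030 to 0.14 for Igf1 and -5.60 to 4.21 for Vegfa. Between Cre-Cre and Cre-pos they were -0.14 to 0.078 for Vegfb, -1.56 to 0.20 for Hbegf and -0.013 to 0.075 for Grn. Vegfa could not be fitted in alternatives whose filter removed it. At these depths a count of 0 for Vegfa, Hbegf or Pdgfc allows up to 0.0878 to 0.13 CPM. The limit takes 3 counts and covers counting error only, not the spread between replicates. Lower levels were at times counted, as for Pdgfc at 0.0314 CPM in Cre-pos replicate 1.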

Other observations

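Ptn, the gene of the secreted growth factor pleiotrophin, was at 3.41, 5.34, 4.45 and 3.35 CPM in the Cre-Cre libraries and at 6.12, 2.25 and 8.98 CPM in the Cre-pos libraries, while the 3 WT libraries held 0, 0 and 2 counts. All carriers of the allele were above all WT mice. Taken singly, this held for 4.4% of tested genes in Cre-Cre and 5.43% in Cre-pos, and the share with both was not counted. Ptn did not pass edgeR's quasi-likelihood test in Cre-Cre (adjusted p = 0.308) or in Cre-pos (adjusted p = 0.658). Astrocytes also express Ptn, and the astrocyte marker sums were 43.9 to 87.1 CPM in Cre-Cre, 40.3 to 66.5 CPM in Cre-pos and 13.2 to 93.6 CPM in WT libraries, and their part was not tested.

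Klf2, a transcription factor gene on the immediate early list, was at 45.3, 47.8, 58.8 and 45.2 CPM in Cre-Cre, 101, 88.8 and 123 CPM in Cre-pos and 159, 179 and 62.7 CPM in WT libraries. Each Cre-Cre library was below each library of the other genotypes, with a log2 fold change against WT of -1.44 (SE 0.31) that did not pass (adjusted p = 0.27 by edgeR's test). Taken singly, 3.57% of tested genes had this order against WT and 3.72% against Cre-pos, and the share with both was not counted.

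The difference of Igfbp4 between the title letters was fitted over all libraries. The f libraries of Cre-pos and WT are 1 mouse each. Over all genotypes the f libraries averaged 1350 CPM (n = 4) and the m libraries 988 CPM (n = 6). With genotype in the fit, the log2 fold change of f over m was 0.39 (SE 0.08), at an unadjusted p of 0.00109 (adjusted p = 0.512 over 14023 genes by edgeR's quasi-likelihood test). The test called 3 genes for the letter. Adjusted p-values for a letter by genotype interaction ran from 0.844 to 1 over the 8 members.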
